A study of Mus musculus with 10 samples.

Results

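The negative feedback regulators and co-repressors of TGFß/SMAD signaling were followed in ASZ001, a mouse basal cell carcinoma (BCC) cell line that is resistant to Smoothened inhibitors. The members were the genes Pmepa1, Smad7, Smad6, Skil, Ski, Tgif1, Smurf1, Smurf2 and Bambi, chosen by gene symbol. They were picked with earlier results of these data known. All 9 were listed among the 17658 genes of the SB431542 table and the 16719 genes of the T-5224 table, and all 9 passed the expression filter (a mean of at least 1 RPKM) in both. In the first experiment cells received vehicle (DMSO, n = 3 libraries) or 10 µM SB431542 (n = 3), an inhibitor of the TGFß type I receptor kinase ALK5. The second set DMSO (n = 2) against 20 µM T-5224 (n = 2), an inhibitor of the transcription factor AP-1. Every group, controls included, was kept in low serum (0.2% chelated FBS) for 24 h. ASZ001 is a single cell line, so the libraries are repeat cultures of one line and do not cover differences between tumors. Values are RPKM, the read density of a gene per kilobase, scaled to library size, so levels of different genes can be compared per length.

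TGFß and activin bind serine/threonine kinase receptors that phosphorylate the receptor SMADs, which then enter the nucleus with SMAD4 and turn genes on or off. Among the genes that SMADs turn on are several that damp the pathway. PMEPA1 is a membrane-bound protein that sequesters receptor SMADs, SMAD7 and SMAD6 are inhibitory SMADs that block receptors and compete for SMAD4, and BAMBI is a pseudoreceptor without a kinase. SKI and its relative SKIL (SnoN), as well as the homeodomain protein TGIF1, are nuclear co-repressors of SMAD complexes. SMURF1 and SMURF2 are ubiquitin ligases that mark SMADs and receptors for degradation.

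The depth read from the values was 31.9 to 51.4 M reads per library. In both tables each of the 10 basal keratinocyte markers listed, such as Krt5 and Krt14, was above 1 RPKM on average, and the markers of fibroblasts, immune cells, endothelial cells and melanocytes each summed to at most 33.2 RPKM in any library, against at least 2904 RPKM for the keratinocyte markers. Over the genes tested, DMSO replicate 1 of the SB431542 experiment stood farthest from its group, with an SD of 0.272 on the log2 scale against 0.161 and 0.190 for replicates 2 and 3. The labels and the column headers number the vehicle libraries of T-5224 differently, so these are named here by column.

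In DMSO-treated cells Pmepa1, Ski and Smurf1 were the most abundant members and Smad7 and Bambi were among the least. In the vehicle controls of SB431542 the mean level was 46.1 ± 3.21 RPKM (SD, n = 3) for Pmepa1, 40.1 ± 0.875 RPKM for Ski and 38.1 ± 1.38 RPKM for Smurf1. Tgif1 followed at 25.8 ± 1.78 RPKM, Smurf2 at 18.9 ± 0.152 RPKM and Skil at 7.73 ± 0.10 RPKM. Smad6 was at 5.25 ± 0.703 RPKM, Smad7 at 3.29 ± 0.366 RPKM and Bambi at 2.38 ± 0.0838 RPKM. The ranges of Ski and Smurf1 overlapped between libraries, and those of the other neighbours in this order did not. In the vehicle controls of T-5224 (n = 2) Ski came first at 56.8 ± 1.68 RPKM and Pmepa1 second at 53.3 ± 0.516 RPKM. There Smad6 (9.15 ± 0.707 RPKM) and Skil (8.37 ± 0.571 RPKM) overlapped, and Smad7 was lowest at 4.13 ± 0.875 RPKM. Bambi was at 7.44 ± 0.615 RPKM in these libraries. The tables were normalized separately, and the DMSO libraries of one were not tested against those of the other.

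**Figure D1:**
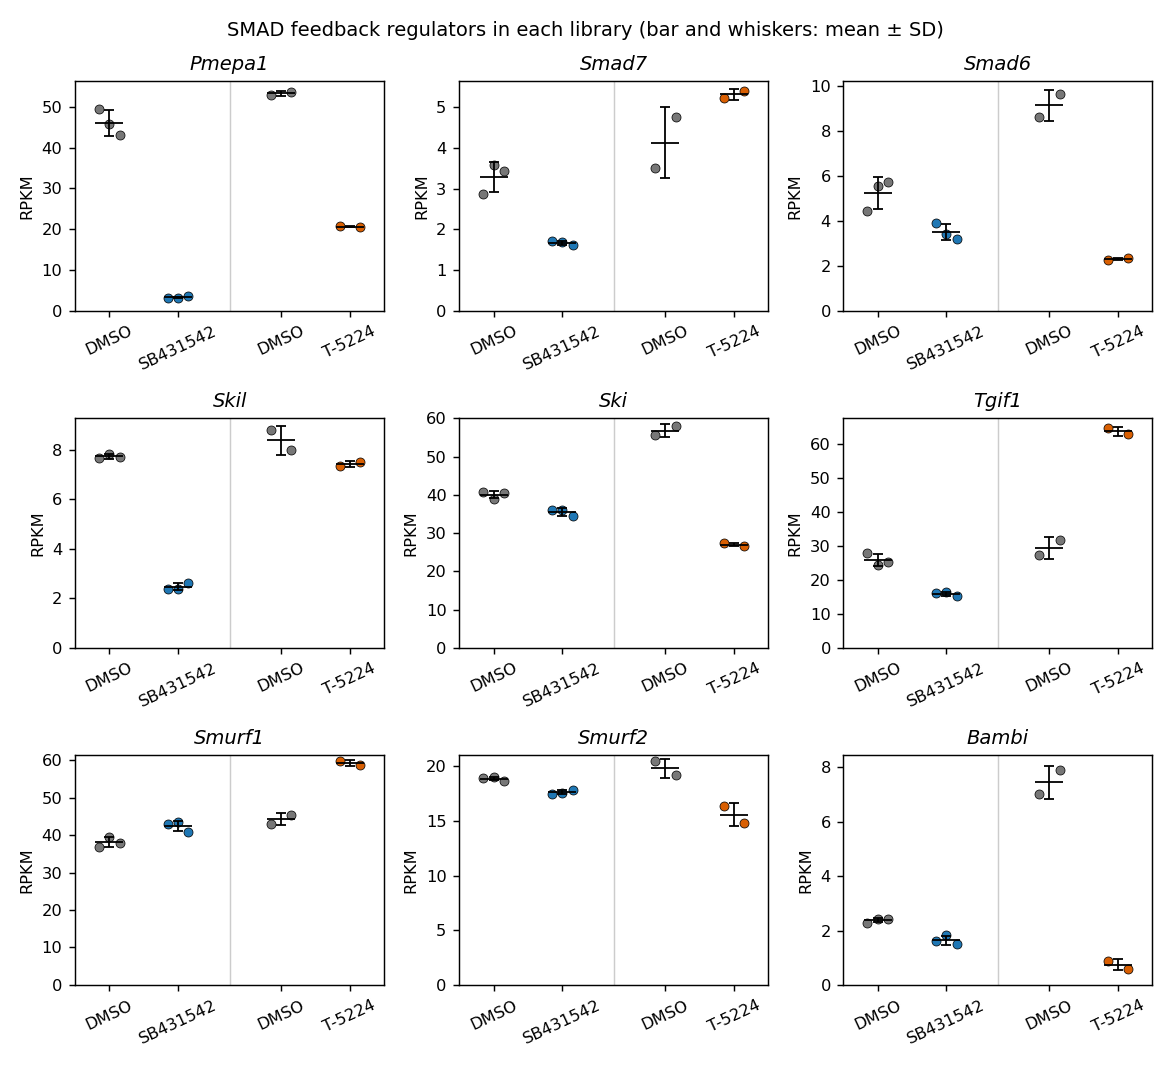
RPKM of each regulator (y axis, linear, from 0) in every library of the 4 groups on the x axis, with the SB431542 experiment left and the T-5224 experiment right of the grey line. Points are libraries, and the bar with whiskers is the mean ± SD. Pmepa1 lies between 3.16 and 3.51 RPKM with SB431542 and between 20.5 and 20.7 RPKM with T-5224, below its DMSO libraries in each, and Tgif1 lies below DMSO with SB431542 and above DMSO with T-5224.

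With SB431542, 7 of the 9 regulators fell, Pmepa1 and Skil by the most, and 0 rose. Whether these changes go back to TGFß or to activin was not tested. Smurf1 was the 1 member that was higher at an unadjusted p under 0.05. At an adjusted p under 0.05 (limma), 10.0% of the 10842 genes tested were lower, 10.2% were higher and 20.2% were called in either direction. Beyond 2-fold, 2 members were down and 0 were up, against 0.581% and 0.231% of the genes tested. Without DMSO replicate 2 or SB431542 replicate 3, 4 members were lower. Without DMSO replicate 3, SB431542 replicate 1 or SB431542 replicate 2, 5 were lower. Only without DMSO replicate 1 did the count stay at 7. The median log2 fold change was −0.52 over the members and 0.01 over all genes tested. Fold changes are on the scale of log2(RPKM + 0.5), which understates the change of weakly expressed genes.

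Pmepa1 (mm9 chromosome 2, 173049959 to 173102034, minus strand) was at 49.4, 45.9 and 43.0 RPKM in the DMSO libraries and at 3.21, 3.16 and 3.51 RPKM with SB431542. The groups were far apart, and the SB431542 libraries kept 7.14% of the mean DMSO level, a 14-fold difference. The log2 fold change of −3.62 (SE 0.07, limma adjusted p = 9.50e-07) was the lowest of the 10842 genes tested. Leaving out any single library kept it between −3.67 and −3.57.

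Among the nuclear co-repressors, Skil (chromosome 3, 30993980 to 31021499, plus strand) was at 7.64, 7.84 and 7.70 RPKM in DMSO and at 2.38, 2.39 and 2.62 RPKM with SB431542. It fell by 1.47 on the log2 scale (SE 0.07, limma adjusted p = 3.54e-05), to 31.9% of the DMSO mean. Tgif1 (chromosome 17, 71193545 to 71202886, minus strand) went from 27.8, 24.4 and 25.2 RPKM to 16.1, 16.5 and 15.4 RPKM, with no overlap. Its log2 fold change was −0.67 (SE 0.06, limma adjusted p = 9.79e-04). Ski (chromosome 4, 154528184 to 154596701, minus strand), the relative of Skil, was at 40.7, 39.1 and 40.4 RPKM in DMSO and at 36.0, 36.2 and 34.4 RPKM with SB431542. Although these libraries did not overlap either, the difference was small, with 88.6% of the DMSO level left and a log2 fold change of −0.17 (limma adjusted p = 0.0470). Without any one of DMSO replicate 2, DMSO replicate 3 or the 3 SB431542 libraries, the adjusted p of Ski rose to between 0.0872 and 0.173, at log2 fold changes between −0.19 and −0.15.

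Both inhibitory SMADs were lower with SB431542. Smad7 was at 2.88, 3.58 and 3.43 RPKM in DMSO and at 1.71, 1.69 and 1.61 RPKM with SB431542. Its treated libraries lay close together at 50.6% of the DMSO mean, with a log2 fold change of −0.80 (SE 0.09, limma adjusted p = 0.00194). Smad6 (chromosome 9, 63800953 to 63869866, minus strand) went from 4.45, 5.55 and 5.75 RPKM to 3.93, 3.40 and 3.20 RPKM, a log2 fold change of −0.52 (SE 0.11, limma adjusted p = 0.0199). The lowest DMSO library of Smad6, replicate 1, was nearest to the treated ones. Without DMSO replicate 2 or 3, or SB431542 replicate 2 or 3, the adjusted p of Smad6 was between 0.0503 and 0.0860, at log2 fold changes between −0.50 and −0.45.

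The pseudoreceptor gene Bambi was at 2.29, 2.42 and 2.44 RPKM in DMSO and at 1.61, 1.83 and 1.51 RPKM with SB431542. It was lower in each treated library, with a log2 fold change of −0.43 (SE 0.09, limma adjusted p = 0.0167). Without DMSO replicate 2, SB431542 replicate 1 or SB431542 replicate 3 its adjusted p was between 0.0544 and 0.0720, at log2 fold changes between −0.42 and −0.38. The pseudogene Bambi-ps1 has a row of its own and reads could be split between the pair.

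The ubiquitin ligases had the smallest differences and neither passed the test. Smurf1 (chromosome 5, 145637364 to 145726716, minus strand) was at 36.8, 39.5 and 37.8 RPKM in DMSO and at 43.0, 43.4 and 40.9 RPKM with SB431542, a log2 fold change of 0.15 (95% interval 0.03 to 0.28, limma adjusted p = 0.0781). Without DMSO replicate 1 the value was 0.13 and the adjusted p 0.0374, so that 1 member was then higher and 7 were lower. Smurf2 (chromosome 11, 106681380 to 106782029, minus strand) was at 18.9, 19.0 and 18.7 RPKM in DMSO and at 17.5, 17.6 and 17.8 RPKM with SB431542. Its log2 fold change was −0.09 (95% interval −0.21 to 0.02, limma adjusted p = 0.194). The libraries of both ligases were apart between groups, as they were for the other 7 members and for 45.1% of all genes tested.

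**Figure D2:**
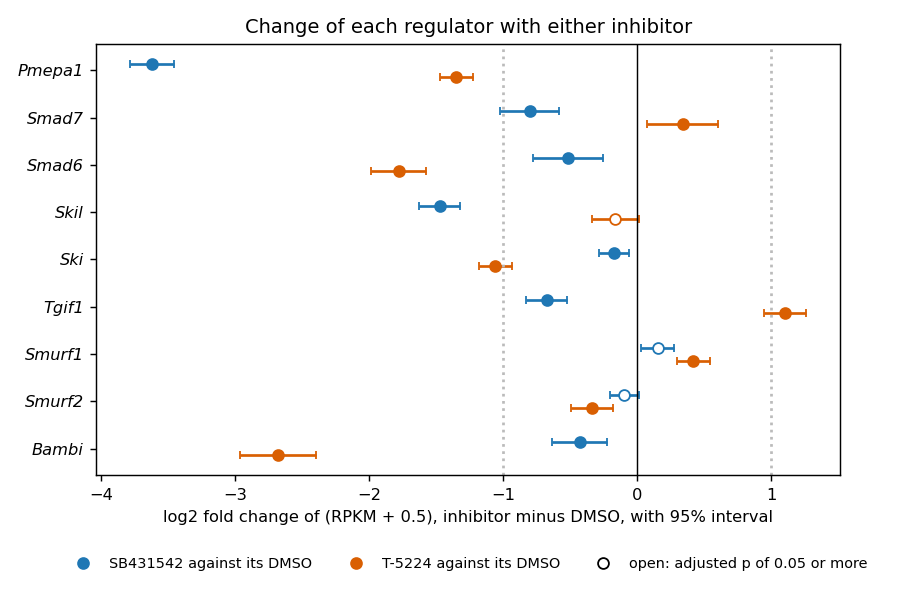
Log2 fold change of RPKM + 0.5 (x axis) of each regulator (y axis) with SB431542 (blue) and T-5224 (orange), each against the DMSO libraries of its own experiment, with 95% intervals and dotted lines at 2-fold. Filled points have an adjusted p under 0.05. Pmepa1 and Skil pass the 2-fold line to the left with SB431542, and Bambi, Smad6, Pmepa1 and Ski do so with T-5224, where Tgif1 passes it to the right.

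With AP-1 inhibited, the regulators split. Pmepa1, Smad6, Ski, Smurf2 and Bambi were lower, which is 5 members where 39.4% of the 10809 genes tested were lower, and Tgif1, Smurf1 and Smad7 were higher, which is 3 members where 40.3% of the genes tested were higher (limma, adjusted p under 0.05). T-5224 changed 79.7% of all genes tested by this measure, so that a share of 8 in 9 members is near the background. Beyond 2-fold, 4 members were down and 1 was up, against 10.6% and 10.4% of the genes tested. The median size of the log2 fold change, regardless of direction, was 1.06 over the members and 0.50 over all genes tested. The treated and DMSO libraries were apart for each of the 9 members and for 89.7% of the genes tested.

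The summed level of the 10 basal keratinocyte markers moved with this treatment, from 16373 to 17212 RPKM in the DMSO libraries to 2904 to 3046 RPKM with T-5224. The immune markers summed to between 16.7 and 18.6 RPKM in DMSO and to between 32.7 and 33.2 RPKM with T-5224, nearly all of it from Cd68, while the pan-leukocyte gene Ptprc was at 0.006 RPKM in DMSO and at 0 with T-5224. With SB431542 the keratinocyte sum went from between 12012 and 12226 RPKM to between 8409 and 8995 RPKM. In that experiment Krt5, Krt14, Krt17, Col17a1, Perp and Cdh1 (117 and 115 RPKM in DMSO and SB431542) had lower means than in DMSO. The means of Krt15 (24.5 and 34.9 RPKM in DMSO and SB431542), Trp63 (81.4 and 86.6 RPKM), Itga6 (72.8 and 74.9 RPKM) and Itgb4 (187 and 192 RPKM) were higher. The part of these changes in the results on the regulators was not tested. In bulk RNA of this cell line, fewer cells expressing these markers and a smaller share of their RNA per cell cannot be told apart.

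Bambi had the largest change of the members with T-5224. It was at 7.01 and 7.88 RPKM in DMSO and at 0.888 and 0.601 RPKM with T-5224, 10.0% of the DMSO mean. Its log2 fold change was −2.68 (SE 0.13, limma adjusted p = 4.86e-09), and 0.888% of the genes tested had a lower one. Pmepa1 was again reduced, from 52.9 and 53.7 RPKM to 20.7 and 20.5 RPKM. Here 38.6% of the DMSO level was left, and the log2 fold change was −1.35 (SE 0.06, limma adjusted p = 1.42e-09), with 6.06% of the genes tested lower. The change of Pmepa1 was thus −3.62 with SB431542 and −1.35 with T-5224, each against its own controls. The difference between the inhibitors was not tested for this or any other gene, because their tables were normalized separately.

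The inhibitory SMAD genes went in opposite directions with T-5224. Smad6 was at 8.65 and 9.65 RPKM in DMSO and at 2.28 and 2.33 RPKM with T-5224, a log2 fold change of −1.78 (SE 0.09, limma adjusted p = 9.36e-09). Smad7 was at 3.51 and 4.75 RPKM in DMSO and at 5.22 and 5.41 RPKM with T-5224. The DMSO libraries of Smad7 were farther apart than the nearer one was from the treated libraries. Its log2 fold change was 0.34 (SE 0.12, limma adjusted p = 0.0212). Without the DMSO library of column 1 it was 0.15 and without that of column 2 it was 0.54. Without T-5224 replicate 1 or 2 the value was 0.37 or 0.32. With no filter on low values the value stayed at 0.34 and the adjusted p was 0.115 (limma).

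The windows at the start of Smad6 and Ski, members that fell more than 2-fold with T-5224, are shown with the motifs of SMAD proteins in them. SMAD motifs also lay in windows of Smurf2 and of Tgif1 and Smurf1, which rose with T-5224. A link between motifs and changes was not tested. The windows shown come from RefSeq (GRCm38.p6, a different build from that of the gene positions above). They run 5′ to 3′ from 250 bases before to 50 after the start of the gene. Capitals mark the SMAD motifs searched, GTCTAGAC and GGCGCC. Smad6 lies at chr9:64022010-64022309 and Ski at chr4:155222486-155222785, both on the minus strand.
Smad6: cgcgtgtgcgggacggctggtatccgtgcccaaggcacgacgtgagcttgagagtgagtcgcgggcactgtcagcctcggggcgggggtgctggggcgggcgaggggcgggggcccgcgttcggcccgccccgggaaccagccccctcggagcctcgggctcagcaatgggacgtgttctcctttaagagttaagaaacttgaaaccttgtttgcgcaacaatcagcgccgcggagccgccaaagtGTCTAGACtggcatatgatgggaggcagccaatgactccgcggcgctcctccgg
Ski: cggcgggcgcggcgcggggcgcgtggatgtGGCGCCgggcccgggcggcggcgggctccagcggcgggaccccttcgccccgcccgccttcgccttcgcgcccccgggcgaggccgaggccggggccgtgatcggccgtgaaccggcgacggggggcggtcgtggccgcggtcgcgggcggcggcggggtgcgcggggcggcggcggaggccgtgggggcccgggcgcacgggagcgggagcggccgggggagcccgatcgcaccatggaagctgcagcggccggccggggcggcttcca
In Smad6 the palindrome GTCTAGAC begins 4 bases before the start. It was found in 0.213% of the 32851 promoter windows of the table. The GC-rich motif GGCGCC of Ski begins 220 bases before the start and was found in 11.9% of the windows, that of Smurf2 included. The window of Ski has 85.3% G and C against a median of 52.7%.

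Of the members, 5 (Smad6, Ski, Tgif1, Smurf1 and Smurf2) had windows in the table, 9 windows in all because Tgif1 has several starts. The short SMAD element CAGAC, or GTCTG on the other strand, was in windows of Tgif1, Smurf1 and Smurf2, and in 49.6% of all windows. The AP-1 site TGAGTCA, searched on both strands, was in 0 of the 9 windows and in 5.20% of all windows, and the related site TGACGTCA in 0 of the 9 and in 1.79% of all. None of these motifs overlapped another in the windows shown. A match is a description of the sequence, and binding was not measured in these libraries. Pmepa1, Skil, Smad7 and Bambi were not searched.

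Of the co-repressors, Ski and Tgif1 moved apart with T-5224. Ski was at 55.6 and 58.0 RPKM in DMSO and at 27.3 and 26.7 RPKM with T-5224, 47.5% of the DMSO mean, with a log2 fold change of −1.06 (SE 0.06, limma adjusted p = 1.13e-08). Tgif1 rose from 27.2 and 31.7 RPKM to 64.9 and 63.0 RPKM, 2.17 times the DMSO mean and a log2 fold change of 1.11 (SE 0.07, limma adjusted p = 5.78e-08). Without the DMSO library of column 1 the log2 fold change of Tgif1 was 0.999, just short of 2-fold. Skil was at 8.77 and 7.97 RPKM in DMSO and at 7.33 and 7.52 RPKM with T-5224, a log2 fold change of −0.16 (95% interval −0.34 to 0.02, limma adjusted p = 0.0846). Without the DMSO library of column 1 the value of Skil was −0.10, and without that of column 2 it was −0.23. Tgif1 was thus lower in each SB431542 library and higher in each T-5224 library than in each DMSO library of the same experiment.

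The ubiquitin ligases changed in opposite directions as well. Smurf1 was at 43.0 and 45.3 RPKM in DMSO and at 59.9 and 58.7 RPKM with T-5224, a log2 fold change of 0.42 (SE 0.05, limma adjusted p = 2.44e-05). Smurf2 went from 20.5 and 19.2 RPKM to 16.4 and 14.8 RPKM, a log2 fold change of −0.34 (SE 0.07, limma adjusted p = 9.86e-04). Both differences were larger than the spread between replicates, and neither reached 2-fold.

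Ratios of related genes within a library do not depend on its scaling. The ratio of Skil to Ski was 0.193 ± 0.00676 (SD, n = 3) in DMSO and 0.0695 ± 0.00585 (n = 3) with SB431542. In the T-5224 experiment it was 0.148 ± 0.0144 (n = 2) in DMSO and 0.275 ± 0.00963 (n = 2) with T-5224. Lower Skil relative to Ski was thus seen with the ALK5 inhibitor, and higher Skil relative to Ski with the AP-1 inhibitor. The ratio of Smad7 to Smad6 was 0.629 ± 0.0293 in DMSO and 0.478 ± 0.0371 with SB431542, and 0.449 ± 0.0609 in DMSO and 2.30 ± 0.0219 with T-5224. Smad6 was the higher of the inhibitory SMADs per length in each DMSO and SB431542 library, and Smad7 was the higher in both T-5224 libraries. The ratio of Smurf1 to Smurf2 was 2.02 ± 0.0680 in DMSO and 2.40 ± 0.0961 with SB431542, and 2.23 ± 0.178 in DMSO and 3.81 ± 0.213 with T-5224. None of these ratios overlapped between treated and DMSO libraries. Of the single genes tested, 45.1% did not overlap with SB431542 and 89.7% did not with T-5224. The share over ratios of other gene pairs was not computed. Of 5 ratios computed in each experiment, these 3 are of related genes. In an exact permutation test (two-sided) each gave p = 0.1 with SB431542 and p = 0.333 with T-5224, the smallest that 3 against 3 and 2 against 2 libraries can give.

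**Figure D3:**
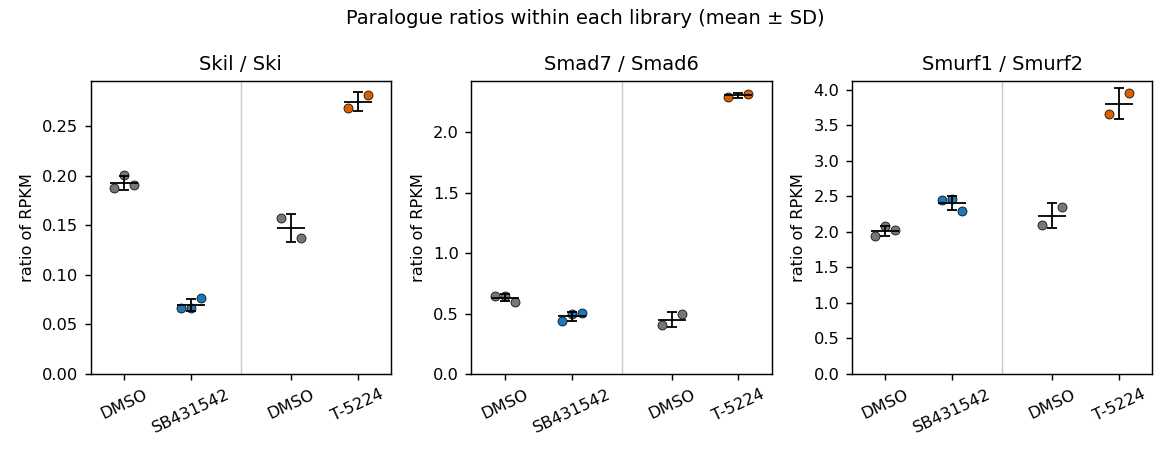
Ratio of RPKM (y axis, from 0) of Skil to Ski, Smad7 to Smad6 and Smurf1 to Smurf2 in each library of the 4 groups on the x axis, with the mean ± SD. The mean of Skil to Ski is 0.0695 with SB431542 and 0.275 with T-5224, below and above the DMSO libraries, and that of Smad7 to Smad6 is 2.30 with T-5224.

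The genes nearest to Pmepa1 were found by distance over the 10 libraries, each centred on the DMSO mean of its table, among 10462 genes tested in both tables. Pmepa1 had the lowest log2 fold change with SB431542 (−3.62), so genes that fell strongly there are favoured by this measure. The nearest was Ctgf (distance 2.61 on the log2 scale), a secreted matricellular protein, with log2 fold changes of −2.31 with SB431542 and −2.26 with T-5224. Ak1, an adenylate kinase, came next (distance 2.87), with −1.97 and −1.40. Prss46 (distance 3.39) had −2.05 and −2.73. Ldlrad4 (distance 3.22) encodes a membrane protein related in sequence to PMEPA1. Ldlrad4 was at a mean of 6.10 RPKM in DMSO and 1.43 RPKM with SB431542 (log2 fold change −1.77), and at 9.89 RPKM in DMSO and 4.30 RPKM with T-5224 (log2 fold change −1.12).

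The rest of the pathway gives the setting of these changes. With SB431542, 10.0% of all genes tested were lower and 10.2% were higher, against 39.4% and 40.3% with T-5224 (limma, adjusted p under 0.05). The counts in the lists here and below are to be read against these shares, and no list was tested as a set. Of 27 other negative regulators of SMAD signaling listed, 22 were tested with SB431542, and 4 were lower and 3 were higher (limma, adjusted p under 0.05). Of the 4, Ldlrad4 and Fst were down more than 2-fold, named here after their values were seen. Fst, the secreted antagonist of activin, was at 79.2 ± 4.14 RPKM (SD, n = 3) in DMSO and at 20.9 ± 2.24 RPKM (n = 3) with SB431542, and at 63.4 ± 0.303 RPKM (n = 2) in DMSO and at 9.70 ± 0.0764 RPKM (n = 2) with T-5224. With T-5224, 21 of this list were tested, and 11 were lower and 8 were higher. By the average of the DMSO means of both tables, which were normalized separately, the leading 3 were the ubiquitin ligase Nedd4, the co-repressor Ctbp1 and Fkbp1a, which binds type I receptors. In the SB431542 table alone Strap, a receptor-associated inhibitor, was above Fkbp1a in DMSO, at 106.7 against 98.3 RPKM. Strap, named after its values were seen, was higher with both inhibitors, with log2 fold changes of 0.24 (limma adjusted p = 0.0196) and 0.77 (limma adjusted p = 1.45e-07). Nedd4 had a log2 difference of −0.16 under SB431542 (limma adjusted p = 0.0462) and −0.95 under T-5224 (limma adjusted p = 1.90e-08). Ctbp1 had 0.35 (limma adjusted p = 0.0803) and 0.28 (limma adjusted p = 3.98e-04), and Fkbp1a had −0.01 (limma adjusted p = 0.931) and −0.66 (limma adjusted p = 2.44e-07).

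Of the 5 receptor and common SMADs tested, 0 were called with SB431542 in either direction (limma, 1 lower at an unadjusted p under 0.05), and 1 was lower and 2 were higher with T-5224. The 1 that was lower was Smad3, which like Smad2 is a receptor SMAD of TGFß and activin. Smad3 was at −0.42 (log2, limma adjusted p = 1.26e-04), against 0.10 under SB431542 (limma adjusted p = 0.231). Smad2 was at 0.03 under T-5224 (limma adjusted p = 0.719) and 0.09 under SB431542 (limma adjusted p = 0.277). Smad3 and Smad2 are named after their values were seen. Smad4 had a log2 difference of 0.09 under SB431542 (limma adjusted p = 0.274) and 0.20 under T-5224 (limma adjusted p = 0.0138). Smad1 had −0.21 (limma adjusted p = 0.0572) and 0.35 (limma adjusted p = 2.14e-04), and Smad5 had 0.01 (limma adjusted p = 0.971) and −0.0020 (limma adjusted p = 0.980). Of 7 receptors tested, 1 was lower with SB431542, and 3 were lower and 1 was higher with T-5224. The 1 lower with SB431542 was Acvr1, named after its values were seen, at −0.47 (log2, limma adjusted p = 0.00214), against 0.19 under T-5224 (limma adjusted p = 0.0298). Acvr1b, an activin receptor kinase (ALK4), had a log2 difference of −0.14 under SB431542 (limma adjusted p = 0.272). It was at 24.1 ± 0.124 RPKM (SD, n = 2) in DMSO and at 6.91 ± 0.556 RPKM (n = 2) with T-5224. Bmpr1a had a log2 difference of −0.02 under SB431542 (limma adjusted p = 0.805) and −0.58 under T-5224 (limma adjusted p = 1.44e-05), and Bmpr2 had −0.30 (limma adjusted p = 0.0552) and −0.46 (limma adjusted p = 2.59e-04).

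Of the ligands, 2 of 6 tested were lower and 1 was higher with SB431542, and 6 of 7 were lower and 1 was higher with T-5224. Inhba, the activin subunit ßA, fell with both, with log2 fold changes of −1.05 and −1.34. Inhbb rose by 0.34 with SB431542 (limma adjusted p = 0.00772) and had −2.62 with T-5224 (limma adjusted p = 1.72e-11). Tgfb1 had 0.02 (limma adjusted p = 0.888) and −0.17 (limma adjusted p = 0.0247). Tgfb2, named after its values were seen, was above Inhba in the DMSO libraries of T-5224 (25.1 against 19.6 RPKM), and had −0.07 with SB431542 (limma adjusted p = 0.562) and −3.85 with T-5224 (limma adjusted p = 1.18e-11).

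Of 17 TGFß and SMAD3 target genes tested, 9 were lower and 1 was higher with SB431542 (median log2 fold change −0.61), and 10 were lower and 4 were higher with T-5224 (median −0.45). The matrix genes Thbs1 and Tgfbi fell with both, with log2 fold changes of −1.56 and −0.71 with SB431542 and of −3.98 and −1.90 with T-5224. Fn1, which encodes fibronectin, had −0.09 with SB431542 (limma adjusted p = 0.293) and rose by 1.08 with T-5224.

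BMP target genes are induced through SMAD1 and SMAD5, mainly by receptor kinases other than ALK5. Of 9 tested, 0 were lower and 2 were higher with SB431542 (limma, median log2 fold change 0.13), against 1 and 3 at an unadjusted p under 0.05. With T-5224, 8 were lower and 0 were higher (median −1.61), and the unadjusted counts were 8 and 0. Id1 was at 69.4 ± 8.78 RPKM (SD, n = 3) in DMSO and at 90.2 ± 3.01 RPKM (n = 3) with SB431542, and at 41.3 ± 2.19 RPKM (n = 2) in DMSO and at 14.7 ± 0.141 RPKM (n = 2) with T-5224. Id2 had log2 fold changes of 0.41 and −4.21. Id3 had 0.55 with SB431542 (limma adjusted p = 0.0705) and −3.69 with T-5224. Among genes whose products act against the brakes, such as the deubiquitinase gene Usp4, 1 of 8 was lower and 1 was higher with SB431542, and 2 of 9 were lower and 3 were higher with T-5224. Usp4 had log2 fold changes of −0.01 (limma adjusted p = 0.957) and −0.0028 (limma adjusted p = 0.967), Axin1 had 0.20 (limma adjusted p = 0.0296) and 0.65 (limma adjusted p = 9.42e-07), and Ep300 had −0.02 (limma adjusted p = 0.921) and −0.31 (limma adjusted p = 0.00128).

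**Figure D4:**
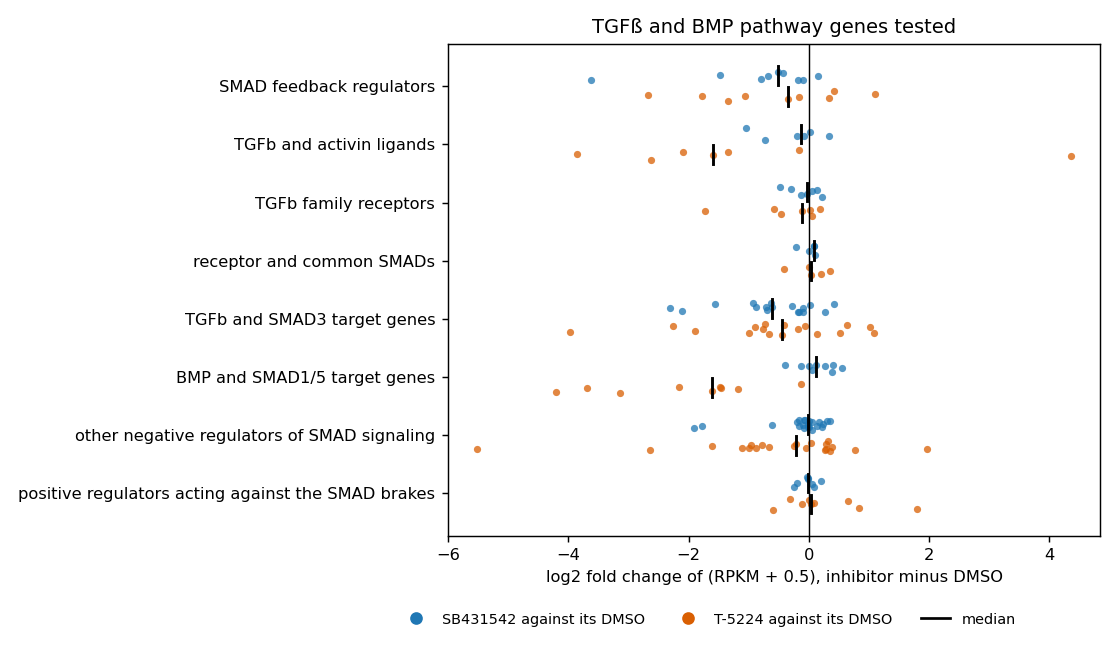
Log2 fold change of RPKM + 0.5 (x axis) of each gene tested in 8 groups of TGFß and BMP pathway genes (y axis), with SB431542 (blue) and T-5224 (orange), each against its own DMSO libraries. Points are genes and black bars are medians. The regulators and the SMAD3 targets have medians of −0.52 and −0.61 with SB431542, and the BMP targets have 0.13 with SB431542 and −1.61 with T-5224.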

How the data were processed

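RNA-seq libraries of ASZ001 cells were made by the authors with a stranded mRNA kit, aligned with TopHat to mm9 and counted with HOMER. The deposited values are RPKM per gene and library, in 1 table per experiment. All columns of values were used (0 were left out). Rows with a date in place of a gene symbol, 22 in one table and 23 in the other, were dropped.

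Each table was fitted in limma 3.58.1 (R 4.3.3) after log2(RPKM + 0.5), keeping genes that averaged 1 RPKM or more. The prior variance followed a trend over expression, and p-values were adjusted by Benjamini and Hochberg over every gene tested in that table. Depth was worked out from short RefSeq genes (under 250 bases) that held under 6 reads, in which at least 99.06% of values lay within 0.05 of a whole read. Gene positions are from GENCODE on NCBIM37, the assembly of mm9. The fits were tested on simulated data.

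The members and gene lists were chosen with earlier results of these data known. Of each list, the 3 genes with the highest average of the DMSO means of both tables, among those tested in both, are named (the order can differ within a table), and of Pmepa1 the 5 nearest genes, of which 1 is not reported here. P-values measure the spread between libraries described as biological replicates. Alternatives were other pseudocounts (0.1 and 1), filters (none, or a mean of at least 5 RPKM) and scalings, no trend, a replicate block and each library left out.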

Additional observations from a re-analysis of the deposited data

How the results depend on the processing

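No value of a single member changed sign among 220 refitted values. The call stayed on its side of the threshold in 198, was lost in 20 and was gained in 2. Pmepa1, Skil, Tgif1 and Smad7 with SB431542, and Pmepa1, Smad6, Ski, Tgif1, Smurf1, Smurf2 and Bambi with T-5224, kept their calls in every refit that tested them. Lost calls were those of Ski (8), Smad6 (5) and Bambi (3) with SB431542 and of Smad7 (4) with T-5224, and calls were gained by Smurf1 with SB431542 and Skil with T-5224 (1 each). With a mean RPKM of at least 5 required, 6 members could be tested with SB431542 and 4 were lower. When single libraries were left out, the number lower with SB431542 was between 4 and 7 and the number higher between 0 and 1, and the number up more than 2-fold with T-5224 was between 0 and 1. The same-numbered DMSO and SB431542 libraries deviated from their group means with correlations of −0.148, 0.151 and −0.0949 over genes. The largest values were 0.196 for DMSO replicate 3 with SB431542 replicate 1 and 0.167 for DMSO replicate 1 with SB431542 replicate 3. Whether the libraries were paired, in this or another order, was not tested. With the replicate block, 5 members were lower with SB431542, and Smad6 (adjusted p = 0.0545, limma) and Ski (adjusted p = 0.134) were not called. No paired analysis was run for T-5224, where the labels give the groups no shared numbers although the column headers do. With 2 libraries per group there, the spread rests on few degrees of freedom per gene and is pooled over genes. Where a library of the T-5224 experiment was left out, the lone library of its group was assumed to vary like the other group. P-values of those refits do not measure the spread in that group, and only their effect sizes are given for single genes. The counts of calls above include those refits, and the call gained by Skil came from such a refit.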
